A study of Mus musculus with 42 samples.

Results

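The gene T, which encodes the transcription factor Brachyury (T/BRA), is 1 of 21911 protein-coding mouse genes in the annotation used. Every ChIP–seq peak that overlapped T extended by 50 kb on each side was collected from 30 deposited peak lists, 1 list per library. In the mm10 (GRCm38) assembly the gene lies on the plus strand at chr17:8434423-8442496 (ENSMUSG00000062327) and the window runs over chr17:8384423-8492496. The full lists held 798 peaks in this window, of which 184 were among the 20000 best peaks of their list. Merged over libraries, those 184 peaks formed 29 sites, out of 336178 regions formed in the same way across the genome.

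The series asked how WNT signalling, CDX proteins and T/BRA shape the binding of SOX2, β-catenin and LEF1 in epiblast-like cells. HM1 mouse embryonic stem cells of a 129 background, either wild type (WT), Cdx1/2/4-/- (CdxKO) or T/Bra-/- (T/BraKO), were kept for 2 days in N2/B27 medium with 10 ng/ml bFGF and 5 μM LGK974, a drug that blocks WNT secretion. On the last day CHIR99021, which inhibits GSK3 and so switches on WNT signalling, was added (CHIR) or left out (noCHIR), and cells were fixed at 72 h. SOX2 was immunoprecipitated from WT noCHIR, WT CHIR, CdxKO CHIR and T/BraKO CHIR cells, whereas β-catenin and LEF1 were immunoprecipitated from the 3 groups given CHIR, with 3 biological replicates in each of the 10 groups. WT noCHIR cells were the only ones without CHIR, and no mutant was profiled without it. Each genotype is a cell line of its own, so that effects of line and genotype cannot be told apart, and the lesion carried by the T/Bra-/- line is not given in the sources used here, so that whether a peak at the promoter or nearby overlaps edited sequence was not checked. Peak lists carry no expression values, so the labelled cell state was not checked against marker genes, and neither was the loss of T/BRA or CDX.

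Brachyury is the founding member of the T-box family of transcription factors. In the embryo it is switched on in the primitive streak, and it is needed for the formation of posterior mesoderm and the notochord. T is a classic target of WNT signalling: β-catenin, which has no DNA-binding domain of its own, is carried to DNA by TCF/LEF proteins such as LEF1, and TCF/LEF motifs lie in the T promoter. SOX2 is an HMG-box factor of pluripotent and neural cells, and CDX proteins are homeodomain factors of the caudal embryo.

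A site was called recurrent where all 3 libraries of at least 1 group had a peak there among their 20000 best. There were 9 such sites, and they took 162 of the 184 peaks. They are named here by the distance of the summit of their best-ranked peak from the start of T, negative values lying upstream. The sequences below, from the reference genome on the plus strand, reach 100 bp to either side of that summit. They are shown for all recurrent sites but those at -37.9 kb and -18.5 kb. Capitals mark matches, on either strand, to the TCF/LEF motif (CTTTGAA or CTTTGAT), the SOX motif (CCATTGT or CCTTTGT), the T-box motif (AGGTGTGA) or the CDX motif (CCATAAA or CAATAAA, and likewise TCATAAA or TAATAAA). Matches to different motifs did not overlap in these windows.
Site at -45.2 kb (chr17:8389115-8389315): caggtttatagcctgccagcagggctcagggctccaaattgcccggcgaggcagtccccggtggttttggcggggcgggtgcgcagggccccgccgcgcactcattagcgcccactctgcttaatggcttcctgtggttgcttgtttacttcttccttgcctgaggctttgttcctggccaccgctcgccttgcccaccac
Site at -25.3 kb (chr17:8408989-8409189): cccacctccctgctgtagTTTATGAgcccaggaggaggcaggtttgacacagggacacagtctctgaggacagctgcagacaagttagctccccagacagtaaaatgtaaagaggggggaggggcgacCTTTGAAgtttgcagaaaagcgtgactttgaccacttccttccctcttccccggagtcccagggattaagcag
Site at -19.8 kb (chr17:8414481-8414681): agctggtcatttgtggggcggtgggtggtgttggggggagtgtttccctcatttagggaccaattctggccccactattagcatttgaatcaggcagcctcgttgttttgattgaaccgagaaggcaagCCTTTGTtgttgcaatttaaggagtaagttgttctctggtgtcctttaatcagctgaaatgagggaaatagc
Site at -12.7 kb (chr17:8421649-8421849): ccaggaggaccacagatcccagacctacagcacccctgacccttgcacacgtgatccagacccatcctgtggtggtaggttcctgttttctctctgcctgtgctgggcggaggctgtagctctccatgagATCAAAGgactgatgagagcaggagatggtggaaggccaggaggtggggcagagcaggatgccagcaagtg
Site at -4.3 kb (chr17:8430023-8430223): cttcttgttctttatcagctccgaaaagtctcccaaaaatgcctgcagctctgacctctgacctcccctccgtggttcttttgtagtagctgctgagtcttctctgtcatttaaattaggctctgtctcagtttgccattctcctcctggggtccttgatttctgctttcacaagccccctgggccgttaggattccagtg
Site at the promoter (chr17:8434085-8434285): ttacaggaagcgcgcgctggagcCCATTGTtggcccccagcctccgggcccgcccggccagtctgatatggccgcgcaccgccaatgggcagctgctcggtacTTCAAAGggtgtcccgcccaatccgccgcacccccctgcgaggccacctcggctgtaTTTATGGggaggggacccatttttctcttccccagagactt
Site at +29.3 kb (chr17:8463598-8463798): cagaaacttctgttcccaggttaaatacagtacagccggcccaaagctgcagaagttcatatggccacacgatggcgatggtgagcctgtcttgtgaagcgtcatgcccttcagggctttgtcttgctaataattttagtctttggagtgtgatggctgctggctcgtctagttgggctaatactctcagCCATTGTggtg

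The promoter window held matches to 3 of the 4 motifs. Its TCF/LEF match lay on the minus strand, at 3 to 9 bp from the summit, with a SOX match at -77 to -71 bp and a CDX match at 60 to 66 bp. The window at -25.3 kb held a TCF/LEF match at 28 to 34 bp and a CDX match at -82 to -76 bp, and the window at -12.7 kb a TCF/LEF match at 30 to 36 bp. SOX matches lay at -19.8 kb and at +29.3 kb. No listed motif occurred in the windows at -45.2 kb and -4.3 kb, nor in those of the recurrent sites at -37.9 kb and -18.5 kb. Over the 9 windows, 3 held a TCF/LEF match, 3 a SOX match, 2 a CDX match and 0 a T-box match. Among 54751 windows of the same length at peak regions called in at least 2 libraries, TCF/LEF letters occurred in 22.3%, SOX letters in 19.2%, CDX letters in 11.7% and T-box letters in 1.27%. A match describes the letters only, not a bound site.

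All values are read from the peak lists. Within a list, peaks were ranked by q-value, the caller's false discovery rate, so that rank 1 is the most significant peak, and the fold enrichment is that of the peak over its control as the caller wrote it. Lists held between 26940 and 1008922 peaks, so binding was compared by rank among the 20000 best peaks, which is a relative scale: a site can lose rank because others gained. The sequencing depth is not given in the sources used here. Replicates were most alike for β-catenin, with a mean correlation of ranks to the own group of 0.76 to 0.81, and least alike for LEF1, at 0.43 to 0.52. Replicates 1 and 2 of SOX2 WT CHIR stood apart, with a peak in 20.5% and 19.1% of the 30050 regions tested for SOX2, against 31.9% to 53.9% in the other 10 SOX2 libraries. Values without each of them are given where they matter.

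Binding around T was concentrated upstream of the gene. Of the 9 recurrent sites, 8 started upstream of T and 1 lay downstream, whereas the only site within the 8074 bp of the gene was called in 1 library. The remaining 20 sites were each called in at most 2 libraries, and 18 of the 29 in 1 library. The site at -45.2 kb (chr17:8388174-8390185) has its summit in an intron of T2 and in an exon of the antisense lincRNA Gm16702. Gm16702 runs over chr17:8379045-8389468 on the minus strand, so its annotated transcription start lies within this site. The sites at -37.9 kb (chr17:8396082-8396962), -25.3 kb (chr17:8408249-8409561), -19.8 kb (chr17:8414200-8415050), -18.5 kb (chr17:8415090-8416200) and -12.7 kb (chr17:8421545-8422043) have theirs in introns of T2, the neighbouring gene whose annotation runs over chr17:8355992-8423513 on the plus strand. The sites at -4.3 kb (chr17:8429398-8430636) and +29.3 kb (chr17:8463595-8464099) are intergenic. The promoter site (chr17:8433343-8434783) reaches from the intergenic sequence into the first exon of T, its summit lying 0.2 kb before the start.

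**Figure D1:**
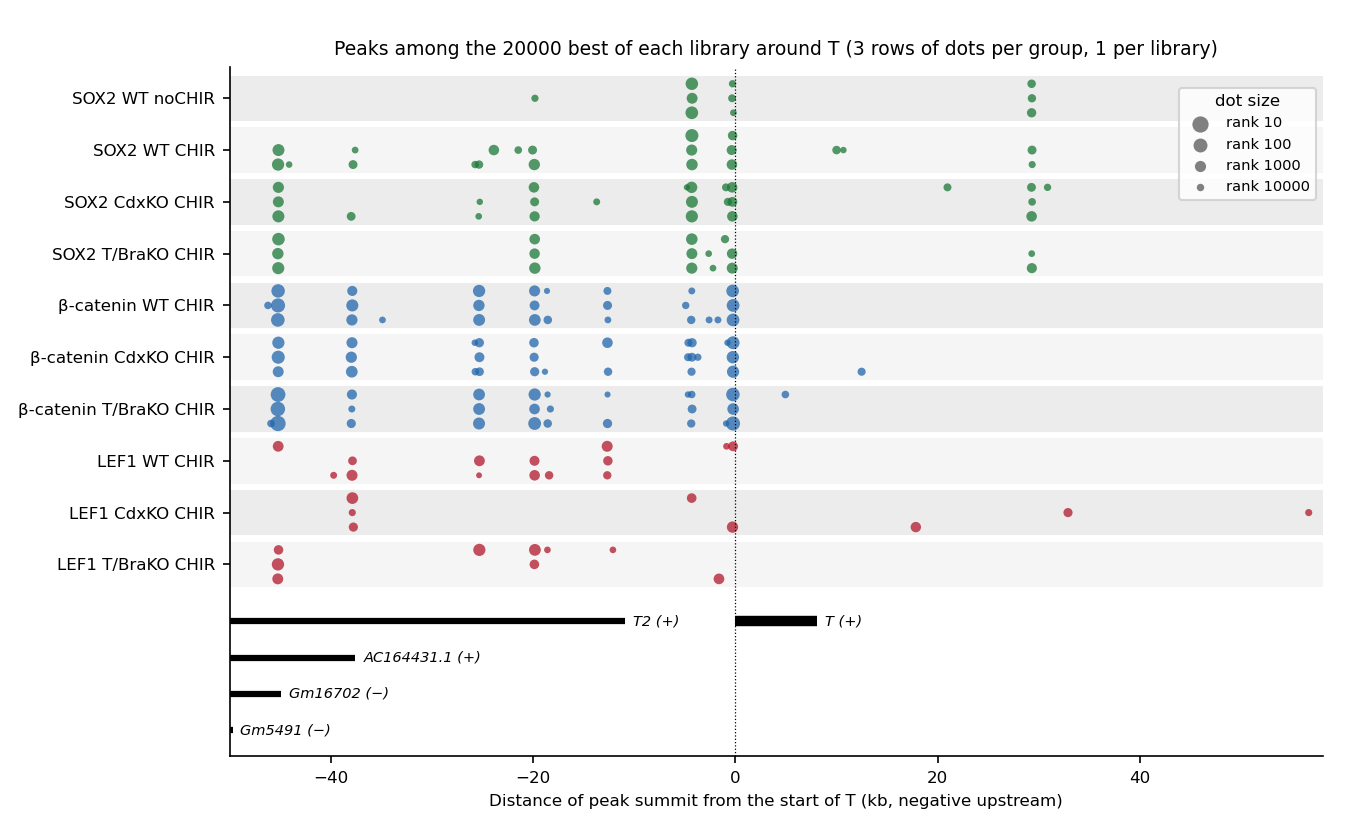
Peaks among the 20000 best of each list in the window of 50 kb on each side of T, by distance from the start of T in kb (x axis) and by library (y axis, 10 groups of 3 libraries), with larger dots for better ranks and the annotated genes as black lines. The upstream sites recur over libraries and factors, and the gene body is nearly empty.

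The map of peaks by library shows which factor used which site. β-catenin had a peak at 8 of the 9 recurrent sites, all but +29.3 kb, and SOX2 at 7, all but -18.5 kb and -12.7 kb. LEF1 also reached 8 sites in at least 1 library, but in 24 of 81 pairs of site and library, against 67 of 81 for β-catenin and 57 of 108 for SOX2. Each LEF1 group had 1 site that all 3 of its libraries called, and the site differed by group: -12.7 kb in WT CHIR, -37.9 kb in CdxKO CHIR and -45.2 kb in T/BraKO CHIR. Summits of the factors were compared at the 6 sites that SOX2 and β-catenin shared. The median SOX2 summit was 4 bp upstream of the median β-catenin summit at -25.3 kb, 2 bp downstream at -19.8 kb, 11 bp downstream at -4.3 kb, 31 bp downstream at -45.2 kb, 84 bp upstream at the promoter and 111 bp downstream at -37.9 kb.

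**Figure D2:**
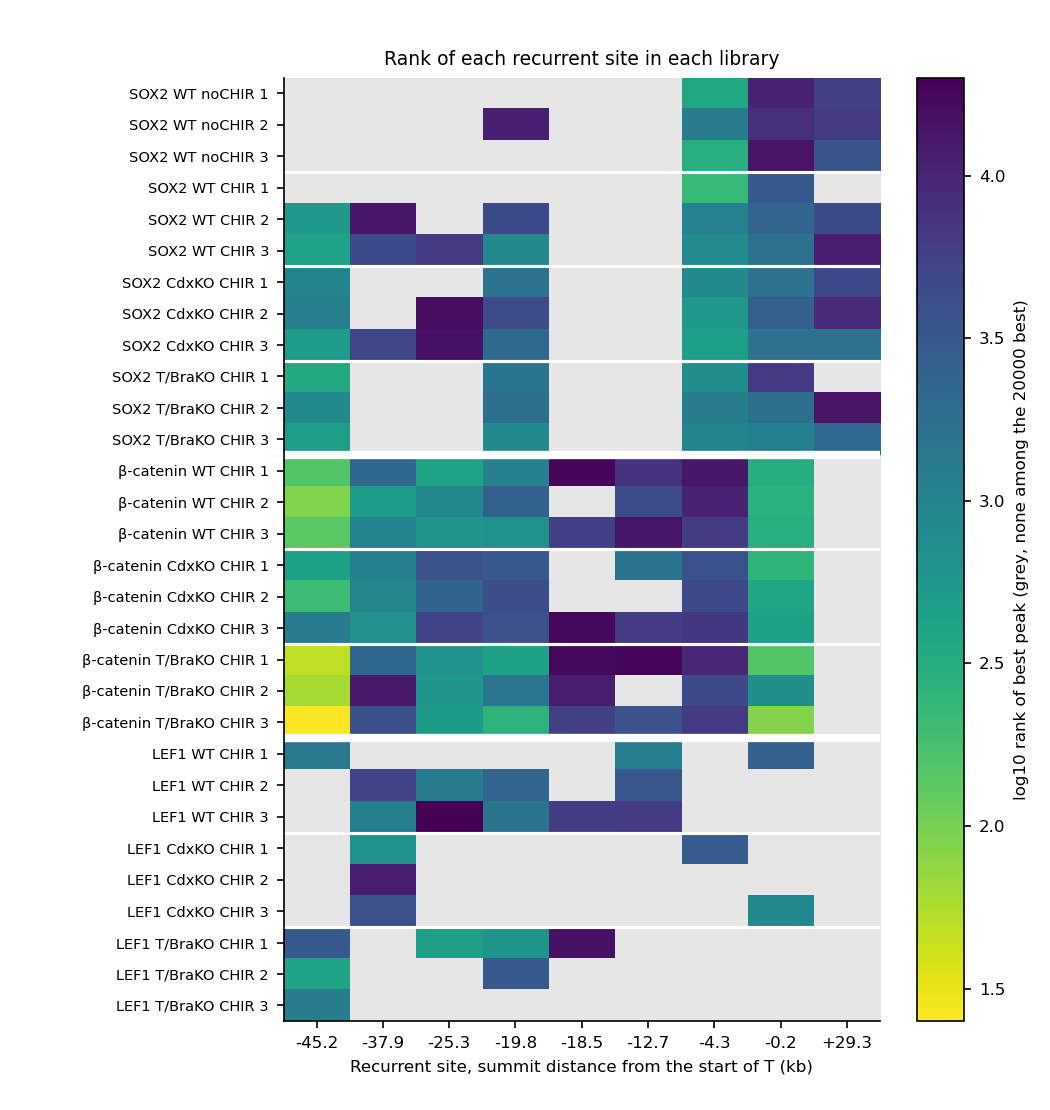
Rank of the best peak at each of the 9 recurrent sites (columns, distance of the summit from the start of T in kb) in each of the 30 libraries (rows), on a log10 colour scale, with grey cells where a site had no peak among the 20000 best. β-catenin rows are filled at nearly every site, SOX2 rows at -4.3 kb and the promoter in all 12 libraries, and LEF1 rows are sparse.

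The strongest peak of the locus was a β-catenin peak in T/BraKO CHIR cells. The best β-catenin peak in the window ranked 153, 88 and 139 in WT CHIR, 252, 206 and 440 in CdxKO CHIR and 47, 60 and 26 in T/BraKO CHIR, with no overlap between the 3 groups. Their geometric means were 123, 284 and 41.9. Set beside all genes with the same extension, 52 to 99 of the 21911 genes had a best rank at least as good as that of T in the T/BraKO CHIR libraries, 139 to 276 in WT CHIR and 329 to 669 in CdxKO CHIR. The order over genes depends on gene length, since longer genes have longer windows.

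Tested by exact two-sided permutation over libraries, T/BraKO CHIR ranks were 0.224 times those of the other 2 genotypes (difference in log10 rank -0.650, exact p = 0.0119, the smallest that 3 against 6 libraries allow, adjusted p = 0.0714 over 6 tests). CdxKO CHIR ranks were 3.95 times those of the others (log10 difference 0.597, exact p = 0.0238, adjusted p = 0.0714). Neither passed 0.05 after adjustment. WT CHIR against either mutant gave the smallest value that 3 against 3 libraries allow, an exact p = 0.1 (adjusted p = 0.35 over 7 tests), with log10 differences of -0.362 against CdxKO CHIR and 0.469 against T/BraKO CHIR. The separation of the groups rests on the site at -45.2 kb. Within 10 kb of T, where the best β-catenin peak was that of the promoter, the groups overlapped and the differences of WT CHIR were -0.0725 against CdxKO CHIR (exact p = 0.4) and 0.146 against T/BraKO CHIR (exact p = 0.7). Over 19215 genes with a β-catenin peak in at least 2 libraries, 0.208% showed the same order of 3 groups without overlap. T was not chosen for that order, but it was looked for after the values of T had been seen.

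SOX2 and LEF1 gave no such order at the level of the whole window. The best SOX2 peak ranked 362, 1219 and 294 in WT noCHIR, 225, 541 and 427 in WT CHIR, 849, 553 and 456 in CdxKO CHIR and 334, 850 and 475 in T/BraKO CHIR. The best LEF1 peak ranked 1139, 1297 and 1129 in WT CHIR, 660, 3890 and 888 in CdxKO CHIR and 450, 404 and 1196 in T/BraKO CHIR. The groups overlapped within each factor, and exact p-values ran from 0.155 to 1.0 (adjusted p from 0.310 to 1.0). No difference in the number of peaks among the 20000 best passed adjustment. SOX2 had 3, 4 and 3 peaks in WT noCHIR and 2, 10 and 9 in WT CHIR (exact p = 0.4, adjusted p = 0.933). It had 9, 8 and 7 in CdxKO CHIR and 4, 6 and 6 in T/BraKO CHIR. CdxKO CHIR and WT noCHIR did not overlap, but they differ in both genotype and CHIR and were not tested against each other. β-catenin had 8, 8 and 11 peaks in WT CHIR, 10, 8 and 10 in CdxKO CHIR and 10, 7 and 10 in T/BraKO CHIR. LEF1 had 4, 4 and 6 peaks in WT CHIR against 2, 3 and 3 in CdxKO CHIR, which did not overlap, but 3 against 3 libraries allow no exact p below 0.1 and the adjusted p was 0.7. The median gene had 1 peak in its window in every library.

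**Figure D3:**
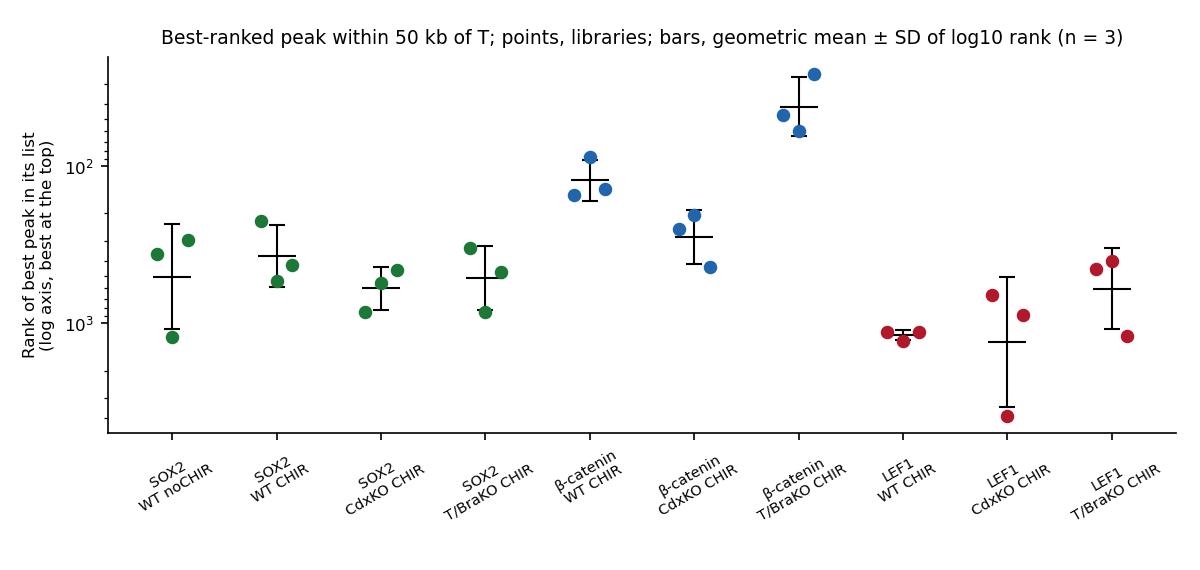
Rank of the best peak within 50 kb of T in each library (points, log axis with the best rank at the top) for the 10 groups of 3 libraries, with the geometric mean of each group ± SD of log10 rank as bars. The 3 β-catenin groups are separate, with geometric means of 41.9 in T/BraKO CHIR, 123 in WT CHIR and 284 in CdxKO CHIR, whereas the SOX2 groups lie between 373 and 598 and the LEF1 groups between 601 and 1316.

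SOX2 was also present at T in the parallel cultures without CHIR, at 3 sites in all 3 WT noCHIR libraries. The strongest was at -4.3 kb, where SOX2 ranked 362, 1219 and 294 without CHIR, at fold enrichments of 44.1, 19.2 and 40.1. With CHIR the site ranked 225, 1041 and 795 in WT, 849, 553 and 456 in CdxKO and 741, 1186 and 979 in T/BraKO cells. The 4 SOX2 groups overlapped there, and the other factors were weaker: β-catenin ranked between 3730 and 12896 in its 9 libraries, and LEF1 was among the 20000 best in 1 library, at rank 2845 in CdxKO CHIR. The site at +29.3 kb was called for SOX2 alone, in 10 of 12 SOX2 libraries and at ranks of 1576 to 14137.

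At the promoter, SOX2 had a better rank with CHIR than without. It ranked 10481, 8017 and 14226 in WT noCHIR and 3212, 2291 and 1592 in WT CHIR, with no overlap. The fold enrichments, 8.73, 10.2 and 7.24 without and 12.3, 10.1 and 14.6 with CHIR, overlapped. In CdxKO CHIR the ranks were 1586, 2546 and 1589, and in T/BraKO CHIR 6571, 1713 and 1123, which overlapped those of WT CHIR. The peak at 6571 had its summit at -1028 bp from the start of T, against -198 to -370 bp in the other SOX2 libraries. In a limma model of log10 rank fitted across all 30050 regions tested for SOX2, the WT CHIR ranks were 0.214 times the WT noCHIR ranks (log10 difference -0.67, SE 0.18, adjusted p = 0.0446). The promoter was the only 1 of 7 tested T sites that passed, where 8.03% of all tested regions did, and the only 1 of 7 without overlap, where 16.4% of regions were. Of the 2413 regions that passed, 280 had the better rank with CHIR, as the promoter did, and 2133 without. The call was lost on leaving out any 1 of the 6 libraries (adjusted p from 0.0646 to 0.145) and with the rank set by fold enrichment.

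SOX2 at -45.2 kb was listed with CHIR and in no library without it, although the WT noCHIR lists were read in full. In WT CHIR the site ranked 541 and 427 in replicates 2 and 3, at 13.7-fold and 23.9-fold enrichment, whereas replicate 1 had its peak at rank 97654, outside its 20000 best. That peak had its summit at -44598 bp, against -45158 to -45221 bp in the other SOX2 libraries that listed the site. In both mutants all 3 libraries called it, at 1000, 1162 and 502 in CdxKO CHIR and at 334, 850 and 475 in T/BraKO CHIR. With absent peaks and ranks past 20000 set just past 20000, WT CHIR against WT noCHIR did not pass in limma (log10 difference -1.08, SE 0.36, adjusted p = 0.125). The call depended on the library left out: the difference was -1.62 without replicate 1 of WT CHIR (SE 0.13, adjusted p = 0.000366), -0.84 without replicate 2 (SE 0.39, adjusted p = 0.331) and -0.78 without replicate 3 (SE 0.37, adjusted p = 0.325). The first was the 1 of 6 such fits under 0.05.

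At -19.8 kb SOX2 was listed in all 3 WT noCHIR libraries, at 77762, 11092 and 113355, of which 1 was among the 20000 best. The site ranked 4419 and 867 in replicates 2 and 3 of WT CHIR and 535753 in replicate 1, 1585, 4391 and 1963 in CdxKO CHIR and 1499, 1685 and 841 in T/BraKO CHIR. For the limma test, every rank past 20000 was set just past that cut-off, so its differences are not those of the full ranks. The log10 difference between WT CHIR and WT noCHIR was -0.59 (SE 0.28, adjusted p = 0.291). It was -0.92 without replicate 1 of WT CHIR (SE 0.21, adjusted p = 0.0359), -0.60 without replicate 2 (SE 0.33, adjusted p = 0.406) and -0.24 without replicate 3 (SE 0.21, adjusted p = 0.634), and 1 of the 6 fits without a library was under 0.05. No SOX2 site around T passed between genotypes. Of the 7 sites, 0 passed between WT CHIR and CdxKO CHIR, where 0.363% of regions did, 0 between WT CHIR and T/BraKO CHIR, where 0.123% did, and 0 between the mutants, where 0.23% did. In each of these limma comparisons 0 of 7 had an unadjusted p under 0.05, where 2663, 2178 and 2255 of all 30050 regions did.

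**Figure D4:**
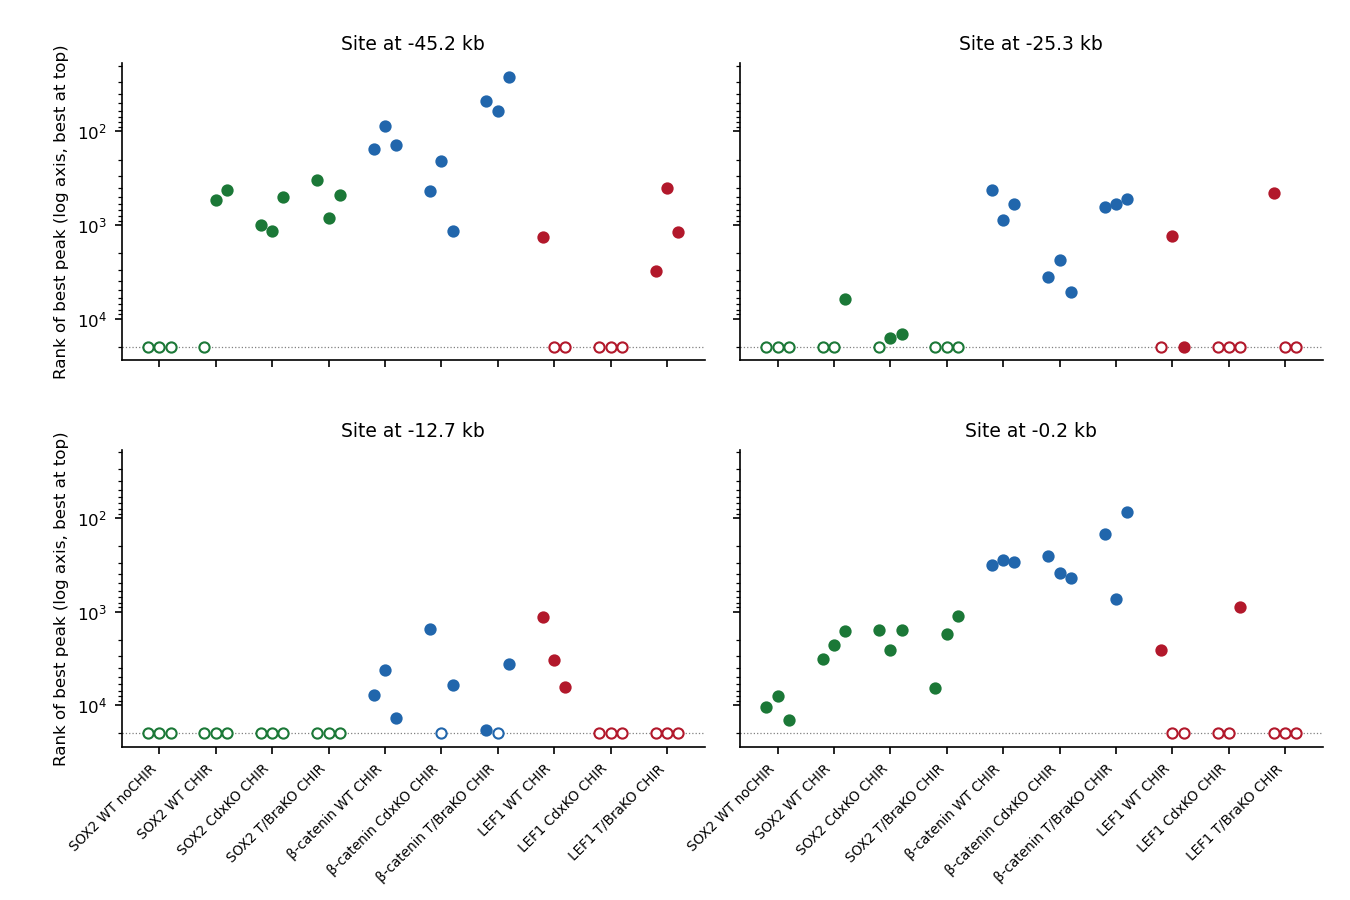
Rank of the best peak at 4 recurrent sites (panels) in each library (points, log axis with the best rank at the top) for the 10 groups, with open circles on the dotted line where a library had no peak among its 20000 best. At -45.2 kb all 9 β-catenin libraries have a peak and WT noCHIR SOX2 libraries have none. At -12.7 kb LEF1 has a peak among the 20000 best in the 3 WT CHIR libraries and in no mutant library.

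β-catenin ranked best at 2 sites in most libraries, the promoter and -45.2 kb. In CdxKO CHIR replicate 3, however, the site at -37.9 kb (rank 675) came before -45.2 kb. In T/BraKO CHIR replicate 2 the site at -25.3 kb (rank 594) came before the promoter. At the promoter β-catenin ranked 315, 282 and 292 in WT CHIR, 252, 386 and 440 in CdxKO CHIR and 150, 727 and 87 in T/BraKO CHIR. These groups overlapped, and WT CHIR differed from CdxKO CHIR by -0.07 in log10 rank (SE 0.21, limma adjusted p = 0.975) and from T/BraKO CHIR by 0.15 (SE 0.21, adjusted p = 0.825). At -45.2 kb the ranks were 153, 88 and 139 in WT CHIR, 434, 206 and 1169 in CdxKO CHIR and 47, 60 and 26 in T/BraKO CHIR, in 3 separate ranges. The fold enrichments there were 46.2, 57.6 and 74.9 in WT CHIR, 42.6, 43.7 and 18.8 in CdxKO CHIR and 109, 83.1 and 121 in T/BraKO CHIR, also in 3 separate ranges.

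The β-catenin sites that passed between genotypes lay distal to the T promoter. At -25.3 kb, where the window has a TCF/LEF match, β-catenin ranked 420, 880 and 591 in WT CHIR, 3588, 2361 and 5133 in CdxKO CHIR and 644, 594 and 531 in T/BraKO CHIR. The ranks in WT CHIR were 0.171 times those in CdxKO CHIR (log10 difference -0.77, SE 0.12, limma adjusted p = 0.0242). The fold enrichments, 27.7, 26.7 and 44.3 in WT CHIR against 8.54, 14.0 and 7.62 in CdxKO CHIR, did not overlap either. This was 1 of 8 T sites that passed, where 0.898% of 22489 regions did. The ranks of 3 of 8 sites, at -45.2 kb, -25.3 kb and -19.8 kb, were better in every WT CHIR than in every CdxKO CHIR library, where 8.19% of regions did not overlap in either direction. Leaving out 1 library at a time gave adjusted p-values of 0.0276 to 0.0890 at -25.3 kb, under 0.05 in 2 of 6 fits, without replicate 2 of WT CHIR and without replicate 2 of CdxKO CHIR.

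Between WT CHIR and T/BraKO CHIR, 0 of 8 sites passed for β-catenin, where 2.85% of regions did. At an unadjusted p under 0.05 in limma there were 2 of 8 sites and 2861 of all 22489 regions. The ranks of 1 site were better in every T/BraKO CHIR library (-45.2 kb, log10 difference 0.47, SE 0.19, adjusted p = 0.338) and those of 1 site in every WT CHIR library (-37.9 kb, -0.67, SE 0.21, adjusted p = 0.189), where 12.4% of regions did not overlap. At -37.9 kb β-catenin ranked 2120, 492 and 984 in WT CHIR, 1087, 924 and 675 in CdxKO CHIR and 2155, 12484 and 3958 in T/BraKO CHIR. The fold enrichments there, 12.8, 39.5 and 30.5 in WT CHIR and 20.7, 6.47 and 10.2 in T/BraKO CHIR, overlapped. The ranks lay opposite to those at -45.2 kb, with the worst in T/BraKO CHIR, though neither site passed in this comparison.

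The 2 mutants differed most from each other, a comparison added after the data had been seen. The β-catenin ranks in CdxKO CHIR were 11.2 times those in T/BraKO CHIR at -45.2 kb (log10 difference 1.05, SE 0.19, limma adjusted p = 0.0117) and 5.98 times at -25.3 kb (0.78, SE 0.12, adjusted p = 0.00555). These were 2 of 8 sites, where 5.89% of regions passed. At -19.8 kb, where β-catenin ranked 3122, 3991 and 3798 in CdxKO CHIR and 438, 1463 and 269 in T/BraKO CHIR, the difference of 0.81 (SE 0.20) had an adjusted p = 0.05003, just above the threshold. The ranks of 3 sites were better in every T/BraKO CHIR library and those of 1 site, -37.9 kb, in every CdxKO CHIR library, where 16.7% of regions did not overlap. Leaving out 1 library kept -25.3 kb under 0.05 in 6 of 6 fits and -45.2 kb in 3 of 6, whose adjusted p was 0.0527 without replicate 1 of CdxKO CHIR, 0.0567 without replicate 1 and 0.055 without replicate 3 of T/BraKO CHIR. The remaining site, at -18.5 kb, had β-catenin in 6 of 9 libraries, at ranks of 5577 to 18172, and LEF1 in 2 libraries, at 5897 in WT CHIR and 14574 in T/BraKO CHIR.

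LEF1 was called at T in fewer libraries than β-catenin, and its 1 site shared by all WT CHIR libraries was at -12.7 kb. There it ranked 1139, 3251 and 6339 in WT CHIR, at 12.03-fold, 10.6-fold and 6.16-fold enrichment. No CdxKO CHIR or T/BraKO CHIR library had a LEF1 peak there among its 20000 best. The full mutant lists held peaks past that cut-off, at ranks of 20958 to 354073, in 5 of the 6 libraries. The peak at 20958, in CdxKO CHIR replicate 2, had a fold enrichment of 7.94, above the 6.16 of WT CHIR replicate 3. Absent peaks and those past rank 20000 were set just past rank 20000. The log10 difference was then -0.84 against either mutant (SE 0.18). It did not pass in limma over 8364 regions (adjusted p = 0.278 against CdxKO CHIR and 0.216 against T/BraKO CHIR). At the promoter LEF1 was among the 20000 best in 2 of 9 libraries, at rank 2554 in WT CHIR and 888 in CdxKO CHIR. In both mutants β-catenin was called at -12.7 kb in 2 of 3 libraries, at ranks of 1536 and 6027 in CdxKO CHIR and of 18477 and 3643 in T/BraKO CHIR.

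Of the 7 T sites tested for LEF1, 0 passed between WT CHIR and CdxKO CHIR, where 0.167% of regions did, 0 between WT CHIR and T/BraKO CHIR, where 0.203% did, and 0 between the mutants, where 0.371% did. At an unadjusted p under 0.05 in limma there were 1, 2 and 1 of 7, and 502, 396 and 545 of all 8364 regions. The site at -12.7 kb was the 1 of 7 without overlap in each comparison with WT CHIR, where 3.77% of regions had none against CdxKO CHIR and 3.07% against T/BraKO CHIR. It entered the tested regions through its WT CHIR peaks alone, which largely fixed its direction and its lack of overlap, so both are a description and support nothing. Between the mutants 2 of 7 sites did not overlap, where 4.57% of regions did not. At -45.2 kb LEF1 ranked 3095, 404 and 1196 in T/BraKO CHIR and was outside the 20000 best in all 3 CdxKO CHIR libraries (log10 difference 1.24, SE 0.35, adjusted p = 0.443). At -37.9 kb it ranked 660, 11586 and 3825 in CdxKO CHIR and was outside the 20000 best in all 3 T/BraKO CHIR libraries (-0.81, SE 0.38, adjusted p = 0.759). At -45.2 kb LEF1 was also called in 1 WT CHIR library. The site thus entered the tested regions only with its T/BraKO CHIR peaks, which largely fixed its direction and lack of overlap. The directions at these 2 sites were those of β-catenin between the same mutants, which is a description and supports nothing.

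The same windows were read for 20 genes in 4 lists, none of which were used to choose T, to place its values. Tbx6, Mixl1, Eomes, Msgn1 and Evx1 regulate the streak and mesoderm. For β-catenin between WT CHIR and T/BraKO CHIR, where 2.85% of all regions passed the limma test, 3 of their 30 regions passed with the better rank in WT CHIR (1 each at Tbx6, Mixl1 and Msgn1) and 1 with the better rank in T/BraKO CHIR (at Evx1). Between the mutants, where 5.89% of regions passed, 4 of 30 did, all with the better rank in CdxKO CHIR (1 at Tbx6, 1 at Mixl1, 2 at Msgn1), and the 2 T sites that passed had theirs in T/BraKO CHIR. Between WT CHIR and CdxKO CHIR 0 of 30 passed, where 0.898% of regions did. The best β-catenin peak of Msgn1, a regulator of presomitic mesoderm, ranked 371 to 1273 in WT CHIR, whereas 1 of 3 T/BraKO CHIR libraries had one among its 20000 best, at 5765. That of Tbx6 ranked 491 to 3021 in WT CHIR and 5293 to 19703 in T/BraKO CHIR. The best peak of Mixl1 ranked 655 to 1802 in WT CHIR and 2516 to 7923 in T/BraKO CHIR. Eomes and Evx1 lay the other way, with overlap. Eomes ranked 779 to 1664 in T/BraKO CHIR and 1236 to 2910 in WT CHIR, and Evx1 85 to 195 and 128 to 215. The best ranks of T lay the same way as these, at 26 to 60 in T/BraKO CHIR and 88 to 153 in WT CHIR, though no T site passed. The difference between T and the genes of this list was not tested.

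The WNT ligands and feedback targets Wnt3, Wnt3a, Wnt8a, Axin2, Sp5 and Lef1 had 61 β-catenin regions. Of these 0 passed between WT CHIR and CdxKO CHIR (0.898% of all regions), 0 between WT CHIR and T/BraKO CHIR (2.85%) and 1 between the mutants (5.89%), at Wnt3, with the better rank in T/BraKO CHIR. Sp5, a direct WNT target, had the lowest geometric mean of β-catenin rank among the listed genes in every group, with ranks of 5 to 15 in WT CHIR, 7 to 15 in CdxKO CHIR and 3 to 4 in T/BraKO CHIR. Among the caudal genes Cdx1, Cdx2, Cdx4, Nkx1-2 and Fgf8, 2 of 27 regions passed with the better rank in WT CHIR than in CdxKO CHIR, 1 each at Cdx1 and Nkx1-2, against 0.898% of all regions in either direction. Between WT CHIR and T/BraKO CHIR 2 of 27 passed with the better rank in WT CHIR, 1 each at Cdx1 and Fgf8, against 2.85%. Between the mutants 2 of 27 passed with the better rank in CdxKO CHIR (1 at Cdx1, 1 at Fgf8) and 4 with the better rank in T/BraKO CHIR (1 at Cdx1, 1 at Cdx2, 2 at Nkx1-2), against 5.89%. Of 22 β-catenin regions at the pluripotency and epiblast genes, 1 passed between WT CHIR and CdxKO CHIR (at Sox2, better in WT CHIR), 0 between WT CHIR and T/BraKO CHIR and 1 between the mutants (at Nanog, better in T/BraKO CHIR). The best β-catenin peak of Cdx1 ranked 10 to 22 in WT CHIR, 160 to 325 in CdxKO CHIR and 11 to 17 in T/BraKO CHIR. That of Nkx1-2 had the geometric means nearest to T, at 117 in WT CHIR, 297 in CdxKO CHIR and 66.6 in T/BraKO CHIR. Of the 20 genes, 0 had the order of T, T/BraKO CHIR before WT CHIR before CdxKO CHIR, without overlap. By geometric mean alone, Nkx1-2, Cdx1, Evx1, Sp5, Cdx4 and Pou5f1 had this order too, so the order as such was not particular to T. At Nkx1-2 the ranges overlapped only between T/BraKO CHIR (41 to 103) and WT CHIR (86 to 195).

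**Figure D5:**
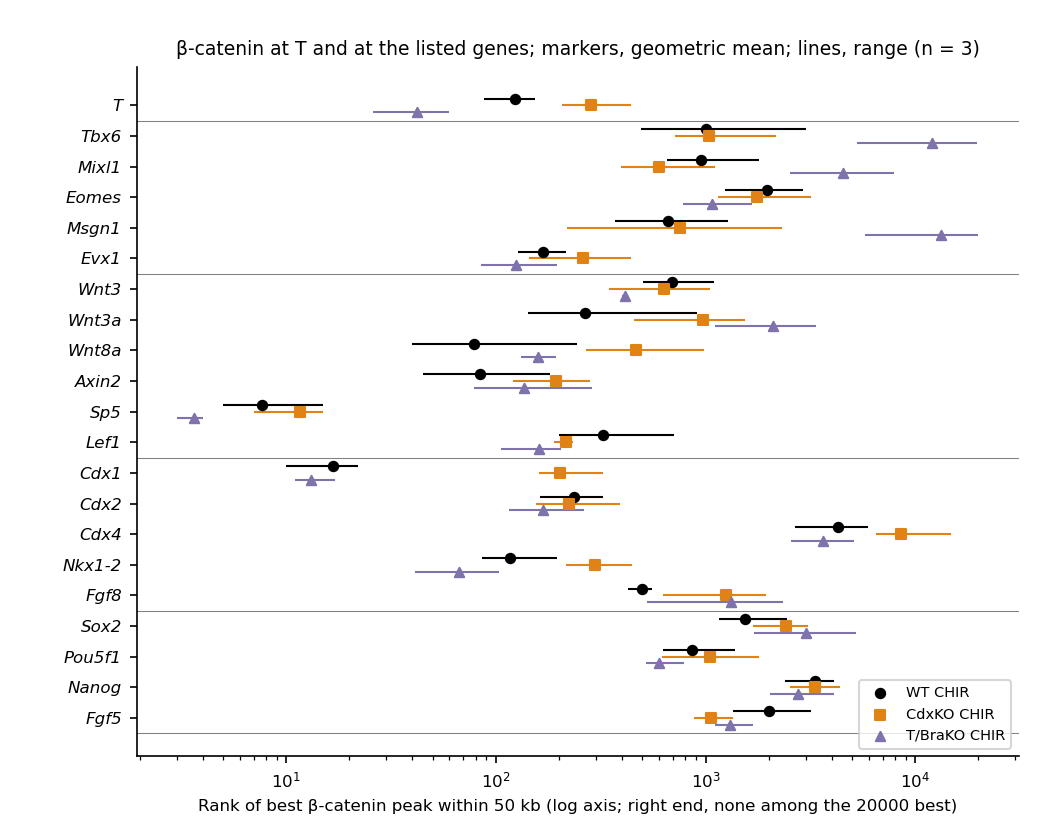
Rank of the best β-catenin peak within 50 kb (x axis, log scale, lower is stronger) for T and 20 listed genes (y axis), with the geometric mean as a marker and the range of 3 libraries as a line, in WT CHIR, CdxKO CHIR and T/BraKO CHIR. The 3 ranges of T are separate, at 88 to 153, 206 to 440 and 26 to 60. Tbx6, Mixl1 and Msgn1 have their worst geometric means in T/BraKO CHIR, whereas Eomes and Evx1 have their best there.

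For SOX2 between WT CHIR and WT noCHIR, 8.03% of the 30050 regions passed, 280 with the better rank with CHIR, as at the T promoter, and 2133 without. At the streak and mesoderm genes 0 of 18 regions passed in the direction of the T promoter and 1 in the other, at Eomes. At the WNT genes 4 of 45 passed with the better rank with CHIR (1 at Wnt3, 1 at Wnt8a, 2 at Sp5) and 1 without (at Lef1). At the caudal genes these were 4 of 26 (1 at Cdx2, 2 at Nkx1-2, 1 at Fgf8) and 0. At the pluripotency and epiblast genes Sox2, Pou5f1, Nanog and Fgf5, 6 of 33 regions passed with the better rank without CHIR (3 of them at Fgf5) and 1 with CHIR (at Pou5f1). For SOX2, 0.363% of all regions passed between WT CHIR and CdxKO CHIR and 0.123% between WT CHIR and T/BraKO CHIR. In each of these comparisons 1 of 26 caudal regions passed, at Fgf8, with the better rank in WT CHIR, and 0 regions of the other lists. LEF1 had 0 regions passing in any list. Of all LEF1 regions 0.167% passed between WT CHIR and CdxKO CHIR, 0.203% between WT CHIR and T/BraKO CHIR and 0.371% between the mutants.

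The genes whose best ranks ran most like those of T over the 30 libraries were Zfp292 (Pearson r of log10 best rank 0.794), Ncf4 (0.785), Nrbp1 (0.784), Mettl18 (0.782) and Gm29609 (0.779), out of 19032 genes with a median r of -0.109. The 30 libraries fall into 3 factors, each with its own antibody, so that these values describe the factors as much as the groups. Within the 9 β-catenin libraries r was 0.768 for Zfp292, 0.712 for Ncf4, 0.637 for Nrbp1 and Gm29609, whose windows share peaks, and 0.524 for Mettl18. Within the 12 SOX2 libraries it was 0.400 for Zfp292, 0.411 for Ncf4, -0.177 for Nrbp1, -0.259 for Gm29609 and 0.601 for Mettl18, and within the 9 LEF1 libraries it ran from 0.207 for Mettl18 to 0.726 for Ncf4.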

How the data were processed

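Peak lists of 30 immunoprecipitated libraries (10 groups of 3) were analysed; for the 12 input libraries no list was analysed here. According to the study's methods, single-end reads were trimmed (Trim Galore), aligned to mm10 (BWA), filtered and passed to MACS through the nf-core ChIP–seq pipeline; the read depth and the input behind each list are not given in the sources used here. In the deposited lists each peak has the authors' fold enrichment (a linear ratio), the −log10 p-value, the −log10 q-value and a score, which was not used. Peaks were ranked by q, then p, within a list. The 20000 best of each list were merged where they overlapped by at least 1 bp. A library without a peak there, or with its best peak past rank 20000, was given a rank just past 20000.

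Best ranks and peak numbers within 50 kb of T were compared by exact two-sided permutation over libraries (7 pair comparisons and 6 of a mutant against the other genotypes, each family adjusted by Benjamini-Hochberg). Sites were tested with limma 3.58.1 (R 4.3.3) on log10 rank, per factor over all its groups, on every region with a peak in at least 2 libraries, and adjusted p-values under 0.05 passed. In the text, adjusted p-values at sites are those of limma, and those beside an exact p are of its permutation family. The limma values hold for rank, not for the number of reads. Python 3.11.15, numpy 2.4.6, pandas 2.3.3 and matplotlib 3.10.9 did the rest. The scripts were tested on simulated data. T, the sites, the gene lists and the motifs were chosen with earlier results of these data known. Named genes were T, its neighbours, the 20 listed genes and the 5 most correlated genes with a peak in at least 10 libraries. Alternatives were other cut-offs, windows, rankings, region sets and filters, a replicate block and leaving out each library. Permutation families of 3 against 3 cannot reach an adjusted p under 0.05.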

Additional observations from a re-analysis of the deposited data

How the results depend on the processing

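The numbers of T sites that passed depended on the processing. Between SOX2 WT CHIR and WT noCHIR the count of 1 became 0 with ranks capped at 5000, with regions merged over SOX2 lists, with no filter on regions, with ranking by fold enrichment and with the replicate block (lowest adjusted p = 0.0543), and ran from 0 to 2 on leaving out 1 library. For β-catenin between WT CHIR and CdxKO CHIR the count of 1 became 0 with full ranks, with no filter and with the replicate block (0.0708), and ran from 0 to 1 on leaving out 1 library. Between β-catenin CdxKO CHIR and T/BraKO CHIR the count of 2 became 0 with full ranks and 1 with no filter, was 3 with the replicate block, and ran from 1 to 3. Libraries of the same replicate number did not deviate together (r from -0.1 to 0.243, every r over 0.1 in 0 of 12 pairs of groups), so the numbers were not taken as pairs. Over the genome the regions passing fell with no filter from 2413 to 1416 (SOX2 with against without CHIR), from 202 to 36 (β-catenin WT against CdxKO) and from 1325 to 466 (β-catenin between mutants), and with full ranks moved to 6448, 38 and 701. The cause was not tested.

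The β-catenin best-rank differences kept their direction in every alternative run, but within 10 kb they shrank to -0.0725 (WT minus CdxKO), 0.146 (WT minus T/BraKO), 0.145 (CdxKO minus the rest) and -0.182 (T/BraKO minus the rest), with exact p-values of 0.369 to 0.7, and with the replicate block T/BraKO CHIR against the other genotypes had an exact p = 0.0370 (adjusted 0.222). None of the locus tests passed adjustment. Directions that turned belonged to differences that passed no test. For the number of peaks, in full lists the differences were 17.7 (SOX2 WT minus CdxKO), 6.67 (β-catenin WT minus CdxKO), -8.0 and -11.0 (LEF1 WT minus CdxKO and minus T/BraKO), -4.33 (SOX2 CdxKO minus the rest), -2.67 (β-catenin CdxKO minus the rest), 2.5 (LEF1 CdxKO minus the rest) and 7.0 (LEF1 T/BraKO minus the rest). Within 10 kb they were -0.333 (LEF1 WT minus CdxKO) and 0.5 (LEF1 CdxKO minus the rest), and within 100 kb -0.333 (SOX2 WT minus T/BraKO). On leaving out 1 library they ran from -2.5 to 1.5 (SOX2 WT minus CdxKO, 1.5 without WT CHIR replicate 1), -1.33 to 0.167 (β-catenin WT minus CdxKO), -0.0667 to 1.0 (β-catenin CdxKO minus the rest) and -0.667 to 0.833 (β-catenin T/BraKO minus the rest).

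For log10 best rank, within 10 kb the differences were 0.0523 (SOX2 CHIR minus noCHIR), 0.435 (LEF1 WT minus CdxKO), -0.0906 (SOX2 CdxKO minus the rest), -0.392 (LEF1 CdxKO minus the rest) and 0.131 (LEF1 T/BraKO minus the rest). Within 100 kb they were 0.0305 (SOX2 CHIR minus noCHIR) and -0.00761 (SOX2 T/BraKO minus the rest), and ranked by fold enrichment 0.0408 (SOX2 WT minus T/BraKO), 0.0817 (LEF1 WT minus CdxKO) and -0.0516 (SOX2 T/BraKO minus the rest). On leaving out 1 library they ran from -0.250 to 0.0584 (SOX2 CHIR minus noCHIR), -0.195 to 0.190 (LEF1 WT minus CdxKO), -0.0742 to 0.129 (SOX2 T/BraKO minus the rest) and -0.0426 to 0.343 (LEF1 CdxKO minus the rest).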
